A study of Homo sapiens with 12 samples.

Results

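The collagen chain genes are the genes that encode the alpha chains of the collagens, each named COL, a collagen type number, A and a chain number. Of 18132 genes with a probe set naming a single gene on the array, 43 carried such a symbol, and each was represented by its brightest probe set. Their signals were compared between 2 human uveal melanoma cell lines, OCM1 and MUM2B, and between cells overexpressing the long noncoding RNA CANT1 and wild type cells of each line. There were 4 groups of 3 arrays, namely OCM1 CANT1, OCM1 wild type, MUM2B CANT1 and MUM2B wild type. The labels describe puromycin selection for the replicate 1 arrays and medium with 10% serum for replicates 2 and 3, and they describe no empty vector in the controls, so CANT1, vector and selection cannot be told apart. The labels name no separate cultures or clones, so the p-values describe how arrays scatter, a scatter that can be purely technical.

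Collagens are triple helices of 3 alpha chains, assembled inside the cell before secretion, mostly with partner chains of the same type. Fibrillar collagens form the banded fibrils of stroma, fibril-associated collagens coat them, type IV chains build the sheet of basement membranes, and type VI chains assemble into beaded filaments around cells. Type VII anchors basement membrane to stroma, and type XIII crosses the cell membrane. In uveal melanoma, looping deposits of extracellular matrix around tumour nests have long been studied as a feature of aggressive tumours.

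Arrays were scaled to a common trimmed mean of 500 signal units, so every signal below is in array units, and a level can be compared between arrays for a gene but not between genes. Differences are in log2(scaled signal + 32), given as estimate ± standard error (SE) from limma, with p-values adjusted by Benjamini-Hochberg over all genes tested and a threshold of 0.05. The offset understates the fold of dim genes. The number of arrays limits the precision, and the median SE was 0.183 for CANT1 against wild type in a line over 12 arrays. Markers of the pigment cell lineage divided the lines: the summed signal of 9 such genes was 80062 to 89870 on 5 of the 6 OCM1 arrays, 14746 on OCM1 wild type replicate 1, and 704 to 972 on the 6 MUM2B arrays. In MUM2B the pigment genes MLANA, at 36.4 to 55.7, and TYRP1, at 19.1 to 21.8, were near the array's low end, while 10 epithelial markers summed to 2326 to 2994 in OCM1, against 22132 to 36482 in MUM2B, a sum carried by the keratins KRT18, KRT7 and KRT8. The epithelial junction genes were low in both lines, with EPCAM at 25.4 to 46.7 in OCM1, against 32.3 to 61.6 in MUM2B, and CDH1 at 31.9 to 44.4, against 30.1 to 42.1, while the splicing factor ESRP1 ran the other way (40.6 to 313 in OCM1, against 27.1 to 40.7 in MUM2B). Of 7 endothelial markers, the cadherin CDH5 read 46.8 to 87.6 in OCM1, against 2394 to 4651 in MUM2B, whereas VWF overlapped between the lines (152 to 211, against 113 to 227) and TEK, EMCN and CLDN5 were below 100 on all 12 arrays. OCM1 wild type replicate 1 was unlike the rest of its line: it correlated with its fellow OCM1 arrays at 0.828 on average across genes, against 0.936 to 0.950 for the other OCM1 arrays and 0.945 to 0.978 for MUM2B. The 3′ to 5′ log2 ratio of ACTB, a measure of RNA integrity, reached 2.15 to 2.51 in replicate 1 but only 0.473 to 0.911 in the later replicates. The probe set for CASC15, the locus of CANT1, read 12.9 to 18.0 on all 12 arrays, and whether it lies within the overexpressed transcript was not tested. In these bulk samples, fewer cells of a type and less RNA per cell cannot be told apart.

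The genes below are the members on which the comparisons turn. The bases upstream of their annotated starts are shown because these members move together or apart in the results, and because COL4A2 shares its upstream stretch with a partner chain. COL4A1 and COL4A2, the chains of the common type IV trimer, start 126 bases apart on chromosome 13 on opposite strands, and COL4A6 and COL4A5 start 379 bases apart on chromosome X in the same arrangement, as do COL4A4 and COL4A3, 135 bases apart on chromosome 2. The whole stretch between the starts of COL4A1 and COL4A2 is printed once, on the strand of COL4A2 (chr13:110307158-110307283, GRCh38.p14). For the others, 250 bases before the start are given 5′ to 3′ on the strand of the gene, from RefSeq promoter windows of the same build: COL12A1 (chr6:75206054-75206303, minus strand), COL13A1 (chr10:69801656-69801905, plus), COL6A2 (chr21:46097862-46098111, plus), COL6A3 (chr2:237414165-237414414, minus) and COL7A1 (chr3:48595330-48595579, minus). Capitals mark 3 short motifs searched on both strands: the TATA-box core TATAAA, the letters of the CCAAT box, and the GC-box core GGGCGG.
COL4A1 to COL4A2: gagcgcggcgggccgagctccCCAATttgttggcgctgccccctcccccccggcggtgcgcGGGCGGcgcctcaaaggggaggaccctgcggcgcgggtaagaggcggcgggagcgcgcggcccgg
COL12A1: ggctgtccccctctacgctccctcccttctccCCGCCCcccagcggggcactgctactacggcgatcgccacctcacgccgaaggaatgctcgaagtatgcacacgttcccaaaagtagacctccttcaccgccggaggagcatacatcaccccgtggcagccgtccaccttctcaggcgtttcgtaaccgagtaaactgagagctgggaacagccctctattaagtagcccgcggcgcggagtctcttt
COL13A1: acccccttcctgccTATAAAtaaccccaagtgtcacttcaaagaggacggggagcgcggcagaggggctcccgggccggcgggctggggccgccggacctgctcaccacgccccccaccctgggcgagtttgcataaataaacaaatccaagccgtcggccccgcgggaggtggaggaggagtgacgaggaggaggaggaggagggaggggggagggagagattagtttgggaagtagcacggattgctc
COL6A2: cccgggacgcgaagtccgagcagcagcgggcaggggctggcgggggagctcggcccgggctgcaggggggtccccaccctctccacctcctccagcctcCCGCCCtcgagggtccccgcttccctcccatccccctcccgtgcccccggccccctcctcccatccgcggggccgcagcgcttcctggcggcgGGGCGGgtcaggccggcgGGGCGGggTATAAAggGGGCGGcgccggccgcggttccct
COL6A3: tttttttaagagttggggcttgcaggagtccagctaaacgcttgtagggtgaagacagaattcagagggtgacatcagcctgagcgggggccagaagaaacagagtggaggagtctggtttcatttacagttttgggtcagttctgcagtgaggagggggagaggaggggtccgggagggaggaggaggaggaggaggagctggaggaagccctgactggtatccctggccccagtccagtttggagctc
COL7A1: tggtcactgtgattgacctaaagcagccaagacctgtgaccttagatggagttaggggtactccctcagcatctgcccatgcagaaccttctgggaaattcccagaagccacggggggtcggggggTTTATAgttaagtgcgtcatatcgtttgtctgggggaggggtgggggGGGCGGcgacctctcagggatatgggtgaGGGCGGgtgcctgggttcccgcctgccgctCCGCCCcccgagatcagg

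The stretch between COL4A1 and COL4A2 held 1 CCAAT and 1 GGGCGG, with 80.2% G or C. Among 35114 promoter windows of the table, 21.1% held CCAAT and 34.6% held GGGCGG within 126 bases of the start. COL6A2 held 4 copies of GGGCGG and a TATAAA that begins 32 bases before the start, COL7A1 held 3 copies of GGGCGG and 1 TATAAA, COL12A1 held 1 GGGCGG, COL13A1 held 1 TATAAA, and COL6A3 held none of the motifs. Over 250 bases, 42.6% of all windows held GGGCGG, while CCAAT was found in 32.01% and TATAAA in 10.7%. Of the 43 windows for 31 collagen genes in the table, 24 (55.8%) held GGGCGG, while CCAAT was found in 11 (25.6%) and TATAAA in 7 (16.3%). A match describes these letters and is not evidence of a factor's binding.

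Of the 43 collagen genes, 22 had 3 or more arrays at a signal of 100 or above and were tested, and the same 22 passed in replicates 2 and 3 alone. The other 21 included the chains of the main stromal fibrils: COL1A1 read 68.8 to 99.2, COL1A2 41.1 to 58.9, COL2A1 20.3 to 31.0 and COL3A1 22.9 to 88.6 over all 12 arrays. Type I, II and III chains therefore lay under the signal minimum in both lines. Also under it were the fibrillar COL11A1 and COL24A1, the basement membrane COL4A3 and COL4A4, the type VI chains COL6A5 and COL6A6, COL8A2 and COL10A1 of the short-chain networks, the fibril-associated COL14A1, COL19A1, COL20A1, COL21A1 and COL22A1, the transmembrane COL23A1, the multiplexin COL15A1, and COL26A1 and COL28A1. Over the 12 arrays COL11A1 read 46.5 to 88.9, COL24A1 37.1 to 62.6, COL10A1 14.3 to 21.2 and COL23A1 35.0 to 62.2, and COL8A2 reached 69.3 at most. Of the type IV and VI chains, COL4A3 reached 60.4 at most, COL6A5 37.7 and COL6A6 34.0. Among the fibril-associated chains, COL19A1 read 41.0 to 60.7, COL20A1 49.6 to 99.1, COL21A1 38.3 to 55.4 and COL22A1 53.2 to 90.6, and COL26A1 read 50.6 to 75.3 and COL28A1 16.8 to 25.2. COL14A1 reached 100 on a single array, OCM1 wild type replicate 1, at 562, against 26.9 to 55.0 on the other OCM1 arrays and 21.9 to 47.4 on the MUM2B arrays. COL15A1 read 27.8 and 24.7 on OCM1 CANT1 replicates 2 and 3, against 63.5 and 80.6 on OCM1 wild type replicates 2 and 3. COL4A4 read 42.2 to 68.9 in OCM1, against 28.2 to 35.6 in MUM2B, groups that did not overlap, at levels below the minimum for testing.

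**Figure D1:**
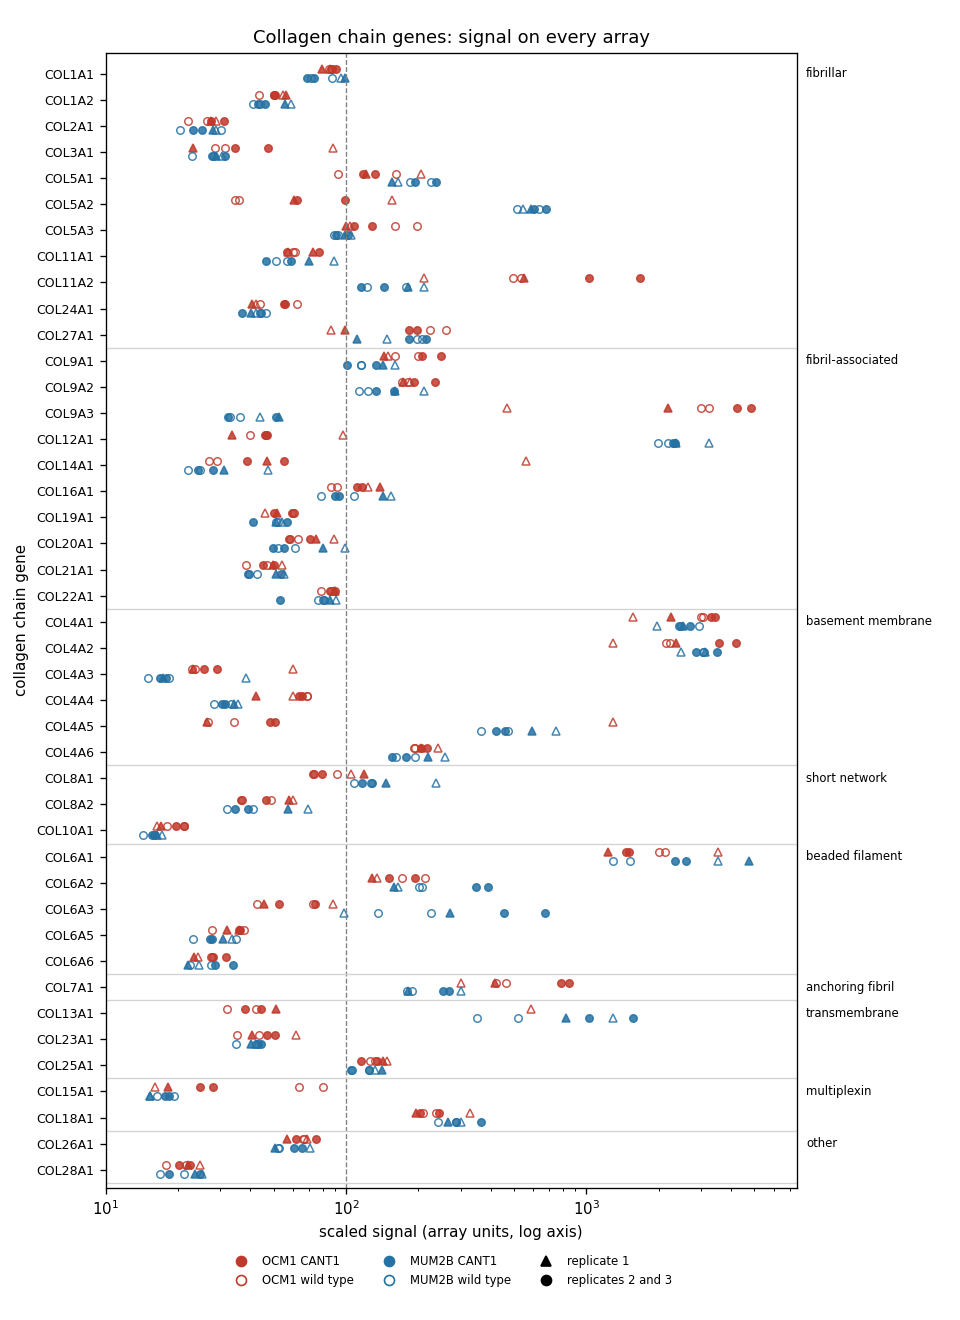
Scaled signal (log axis) of each of the 43 collagen chain genes on every array, grouped by kind of collagen. Red marks are OCM1 and blue marks MUM2B, filled for CANT1 and open for wild type, triangles for replicate 1 and circles for replicates 2 and 3, and the dashed line is the signal of 100. COL12A1 and COL9A3 show the widest gaps between the lines, in opposite directions, and the open red triangle of OCM1 wild type replicate 1 lies away from the other OCM1 marks for COL4A5, COL13A1, COL14A1 and COL9A3.

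Some collagen chains differed in signal between the lines. Averaged over CANT1 and wild type on 12 arrays, 12 of the 22 tested genes passed between OCM1 and MUM2B, 5 higher in OCM1 (COL9A3, COL11A2, COL7A1, COL9A1 and COL5A3) and 7 lower (COL12A1, COL13A1, COL5A2, COL4A5, COL6A3, COL8A1 and COL6A2). Of all 12727 genes tested, 48.8% passed in this comparison, 28.0% higher and 20.8% lower, a share close to the 12 of 22 among the collagen genes. The median difference of the 22 was -0.17, against 0.07 over all genes. COL9A3, COL12A1 and COL6A3 entered the test through one line alone, with no array at 100 in the other, and COL13A1, COL4A5 and COL5A2 did so but for OCM1 wild type replicate 1. For these 6 genes a difference followed from how they entered the test, so the count supports nothing about the list. The p-values given below for these 6 genes carry the same limit.

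Among the fibril-associated chains, COL12A1, a chain that bridges fibrils and the surrounding matrix, was high in MUM2B and near the low end of the array in OCM1. It read 33.4, 47.0 and 46.2 on the OCM1 CANT1 arrays and 97.3, 46.3 and 40.0 on the OCM1 wild type arrays, against 2351, 2295 and 2326 for MUM2B CANT1 and 3241, 1989 and 2182 for MUM2B wild type, in the order of replicates 1, 2 and 3. Every OCM1 array lay below 100 and every MUM2B array far above it, and the difference was -4.88 ± 0.15, adjusted p = 9.57e-09. COL9A3, a chain of the type IX collagen that decorates cartilage fibrils, showed the opposite pattern. Its signal was 2187, 4839 and 4236 for OCM1 CANT1 and 468, 3231 and 2984 for OCM1 wild type, against 52.7, 32.4 and 51.0 for MUM2B CANT1 and 44.0, 36.1 and 32.9 for MUM2B wild type. The lines did not overlap, with a difference of 5.08 ± 0.37, adjusted p = 3.53e-06, and the lowest OCM1 value was on wild type replicate 1, where the pigment cell marker sum was also lowest. The part of those markers in its level was not tested. Its partner chains differed far less: COL9A1 read 143 to 248 in OCM1, against 101 to 160.4 in MUM2B (0.42 ± 0.14, adjusted p = 0.0327), and COL9A2 read 170.5 to 235, against 113 to 211 (0.30 ± 0.13, adjusted p = 0.0846), with overlapping lines in both cases. The COL9A1 call was lost under 8 of 21 alternatives. On replicates 2 and 3 COL9A2 passed as higher in OCM1 among wild type cells (0.47, adjusted p = 0.00339) and CANT1 cells (0.46, adjusted p = 0.00379). COL16A1 read 86.2 to 138 in OCM1, against 78.5 to 153 in MUM2B, and did not pass.

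**Figure D2:**
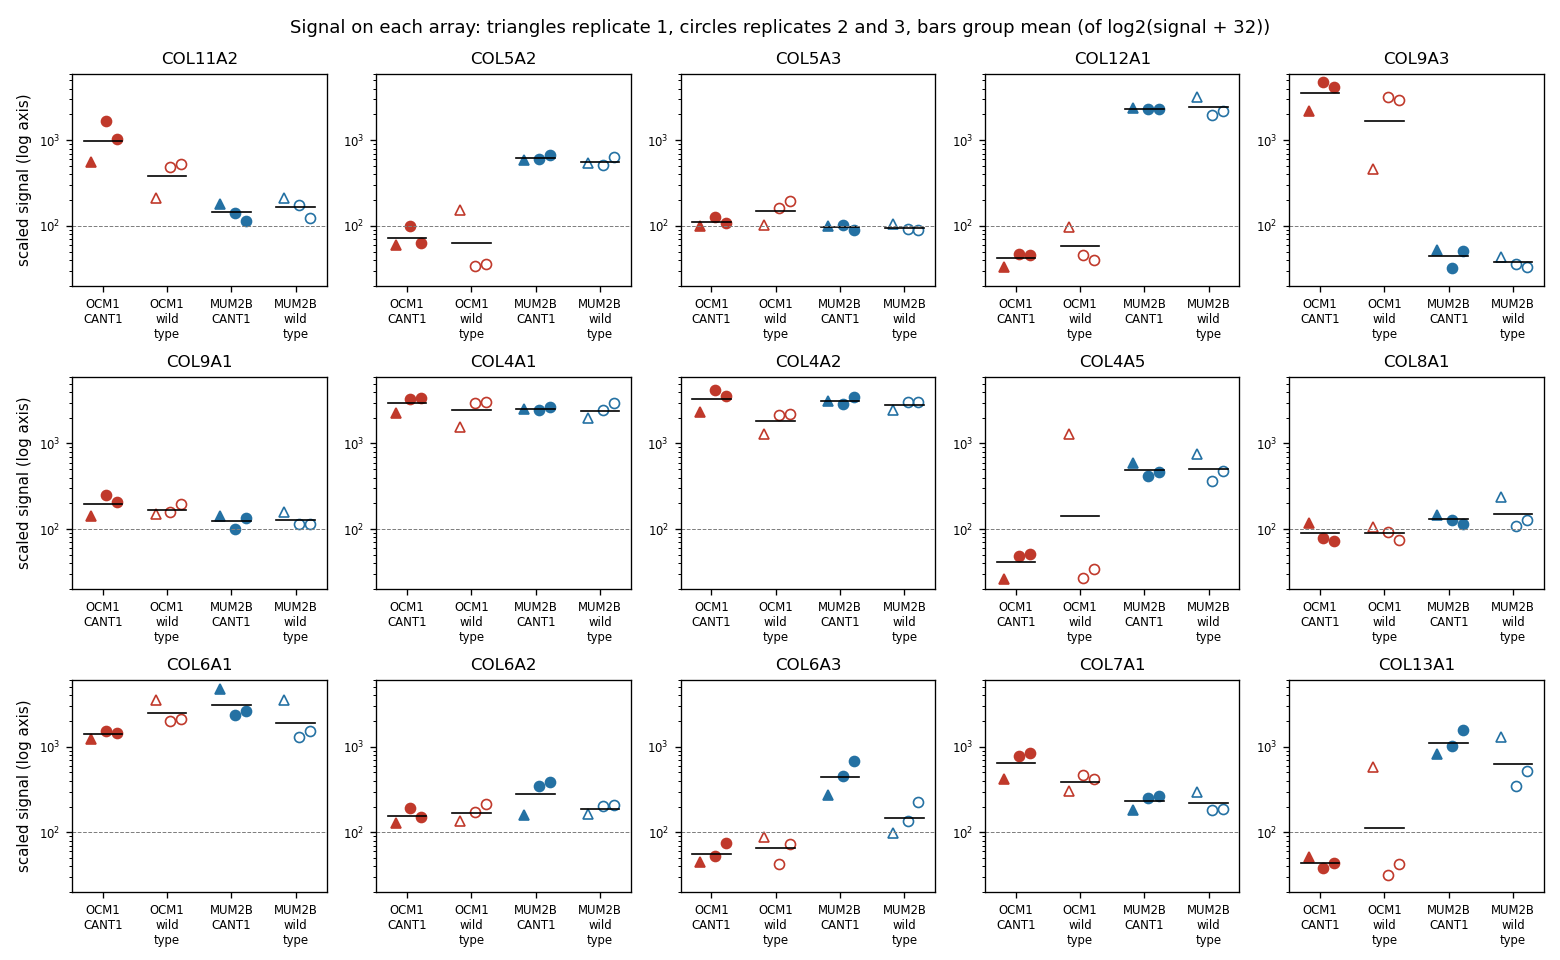
Scaled signal (log axis) on each array for 15 collagen chain genes by group, with triangles for replicate 1, circles for replicates 2 and 3, and a bar at the group mean of log2(signal + 32). COL12A1 and COL5A2 are high on all 6 MUM2B arrays, COL9A3 is high on the OCM1 arrays, and COL6A1, COL6A2 and COL6A3 are higher in MUM2B CANT1 than in MUM2B wild type on replicates 2 and 3.

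Fibrillar chains above the minimum were those of types V, XI and XXVII. COL5A2, which joins COL5A1 in the type V trimer that starts stromal fibrils, read 60.5, 99.4 and 62.5 for OCM1 CANT1 and 155, 34.5 and 35.8 for OCM1 wild type, against 587, 608 and 679 for MUM2B CANT1 and 543, 513 and 634 for MUM2B wild type. Each of the 6 OCM1 arrays lay below each MUM2B array, and the difference was -2.65 ± 0.24, adjusted p = 1.52e-05. COL5A1 read 92.3 to 204 in OCM1, against 155 to 236 in MUM2B, and passed only in replicates 2 and 3, where the difference was -0.65 ± 0.18, adjusted p = 0.00735 among CANT1 cells and -0.60 ± 0.18, adjusted p = 0.0112 among wild type cells. COL5A3, another type V chain, read 100.2, 128 and 108 for OCM1 CANT1 and 104, 160.4 and 197 for OCM1 wild type, against 99.2, 102 and 90.7 for MUM2B CANT1 and 105, 92.4 and 88.9 for MUM2B wild type. Its average difference of 0.33 ± 0.12 passed (adjusted p = 0.0411), although the lines overlapped, and it was lost under 12 of 22 alternatives. COL11A2, a chain of the cartilage fibril collagen XI, read 551, 1674 and 1025 for OCM1 CANT1 and 211, 494 and 534 for OCM1 wild type, against 181, 143 and 115 for MUM2B CANT1 and 211, 177 and 123 for MUM2B wild type. Both OCM1 groups lay above MUM2B on replicates 2 and 3, whereas on replicate 1 the wild type arrays of the lines read almost the same. The average difference over 12 arrays was 1.80 ± 0.28, adjusted p = 5.09e-04. COL27A1 read 86.9 to 261 in OCM1, against 111 to 215 in MUM2B, and did not pass.

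In the basement membrane class, the common type IV chains were well above the minimum in both lines and the minor chain COL4A5 divided them. COL4A1 read 2245, 3298 and 3418 for OCM1 CANT1 and 1561, 2992 and 3067 for OCM1 wild type, against 2533, 2430.0 and 2691 for MUM2B CANT1 and 1960.0, 2474 and 2931 for MUM2B wild type. The lines overlapped, and the difference of 0.10 ± 0.12 did not pass (adjusted p = 0.527). On replicates 2 and 3 COL4A1 was higher in OCM1 among CANT1 cells (0.39, adjusted p = 0.00671), a call lost under 2 of 16 alternatives. COL4A2 read 2357, 4188 and 3567 for OCM1 CANT1 and 1293, 2143 and 2230.1 for OCM1 wild type, against 3120.4, 2865 and 3481 for MUM2B CANT1 and 2464, 3050.4 and 3072 for MUM2B wild type. Among wild type cells it was lower in OCM1 (-0.62 ± 0.17, adjusted p = 0.0192), with no overlap. Among CANT1 cells the difference was 0.06 ± 0.17 and did not pass. The wild type call was lost without the set term (adjusted p = 0.102) or MUM2B wild type replicate 3 (adjusted p = 0.0515). It was also lost with the _x_at and _s_at probe sets set aside (-0.43, adjusted p = 0.0979). On replicates 2 and 3 COL4A2 passed among wild type cells (-0.48, adjusted p = 0.00324), a call lost without those probe sets (-0.15). Among CANT1 cells it was higher in OCM1 there (0.29, adjusted p = 0.0453), which was lost under 11 of 16 alternatives. COL4A5, whose product forms trimers with COL4A6 or with COL4A3 and COL4A4, read 26.3, 48.2 and 50.9 for OCM1 CANT1 and 1293, 26.7 and 34.3 for OCM1 wild type, against 592, 419 and 460.5 for MUM2B CANT1 and 747, 365 and 473 for MUM2B wild type. All OCM1 arrays but one lay near the low end, and OCM1 wild type replicate 1 was the highest of all 12. The average difference was -2.23 ± 0.58, adjusted p = 0.00932 with that array and -2.93 without it (adjusted p = 6.04e-07). COL4A6, the head-to-head neighbour of COL4A5, read 191 to 241 in OCM1, against 155 to 258 in MUM2B, by its brightest probe set. It passed as higher in OCM1 among CANT1 cells on replicates 2 and 3 (0.29, adjusted p = 0.0274), which was lost under 4 of 14 alternatives. On OCM1 replicate 1 the CANT1 minus wild type difference was -0.20 for the COL4A6 probe set used. Most of the others, with lower mean signals, fell further, by -3.61, -2.39, -1.45, -1.26 and -0.78, and another gave 0.08. The one with -3.61 had a highest signal of 561, against 258 for the one used, so the COL4A6 probe sets disagree about that pair of arrays.

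Of the beaded filament chains, COL6A3 and COL6A2 passed between the lines in the average and COL6A1 did not. COL6A3, the long chain that completes the type VI trimer, read 45.5, 52.4 and 74.3 for OCM1 CANT1 and 88.3, 42.8 and 72.9 for OCM1 wild type, against 272, 453 and 672 for MUM2B CANT1 and 98.5, 136 and 225 for MUM2B wild type. Every OCM1 array lay below every MUM2B array, and the average difference was -1.63 ± 0.22, adjusted p = 1.96e-04. COL6A1 read 1226, 1508 and 1459 for OCM1 CANT1 and 3521, 2009 and 2118 for OCM1 wild type, against 4750.5, 2341 and 2608 for MUM2B CANT1 and 3534, 1285 and 1522 for MUM2B wild type. Its average difference of -0.38 ± 0.19 did not pass. OCM1 was lower among CANT1 cells (-1.12 ± 0.27, adjusted p = 0.00977), while among wild type cells the difference was 0.36 ± 0.27 and did not pass. On replicates 2 and 3 alone COL6A1 was higher in OCM1 among wild type cells (0.55, adjusted p = 7.26e-04) and lower among CANT1 cells (-0.72, adjusted p = 8.98e-05). The wild type arrays of replicate 1 differed by -0.01. COL6A2, which lies 93063 bases beyond COL6A1 on chromosome 21, read 128, 194 and 151 for OCM1 CANT1 and 135, 171 and 213 for OCM1 wild type, against 159, 348 and 391 for MUM2B CANT1 and 164, 201 and 208 for MUM2B wild type. The average difference was -0.44 ± 0.13, adjusted p = 0.0185, and it did not pass with the mean of all its probe sets, where it was -0.08, without the set term, or without OCM1 CANT1 replicate 3.

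COL7A1, the anchoring fibril collagen of skin, read 415, 783 and 846 for OCM1 CANT1 and 300.3, 462 and 420.1 for OCM1 wild type, against 181, 253 and 267 for MUM2B CANT1 and 300.0, 180.2 and 188 for MUM2B wild type. OCM1 was higher by 1.07 ± 0.19, adjusted p = 0.00104, although the wild type arrays of replicate 1 read 300.3 in OCM1 and 300.0 in MUM2B. COL13A1, a transmembrane collagen of adhesive contacts, read 51.0, 38.0 and 44.5 for OCM1 CANT1 and 587, 31.9 and 42.2 for OCM1 wild type, against 824, 1029.8 and 1567 for MUM2B CANT1 and 1292, 351 and 519.8 for MUM2B wild type. The 5 OCM1 arrays other than wild type replicate 1 read 31.9 to 51.0, below every MUM2B array, and the average difference was -3.04 ± 0.46, adjusted p = 4.21e-04. COL8A1, which forms the hexagonal network of corneal and vascular matrix, read 119, 79.6 and 73.2 for OCM1 CANT1 and 105, 91.8 and 73.9 for OCM1 wild type, against 147, 129 and 116 for MUM2B CANT1 and 237, 108 and 127 for MUM2B wild type. The lines overlapped slightly, and OCM1 was lower (-0.50 ± 0.11, adjusted p = 0.0035). COL18A1, the parent of endostatin, read 195 to 329 in OCM1, against 242 to 364 in MUM2B, and COL25A1 read 115 to 148, against 105 to 141. Neither passed in the average over 12 arrays. On replicates 2 and 3 COL18A1 was lower in OCM1 among CANT1 cells (-0.48, adjusted p = 0.0071), a call lost under 2 of 16 alternatives.

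**Figure D3:**
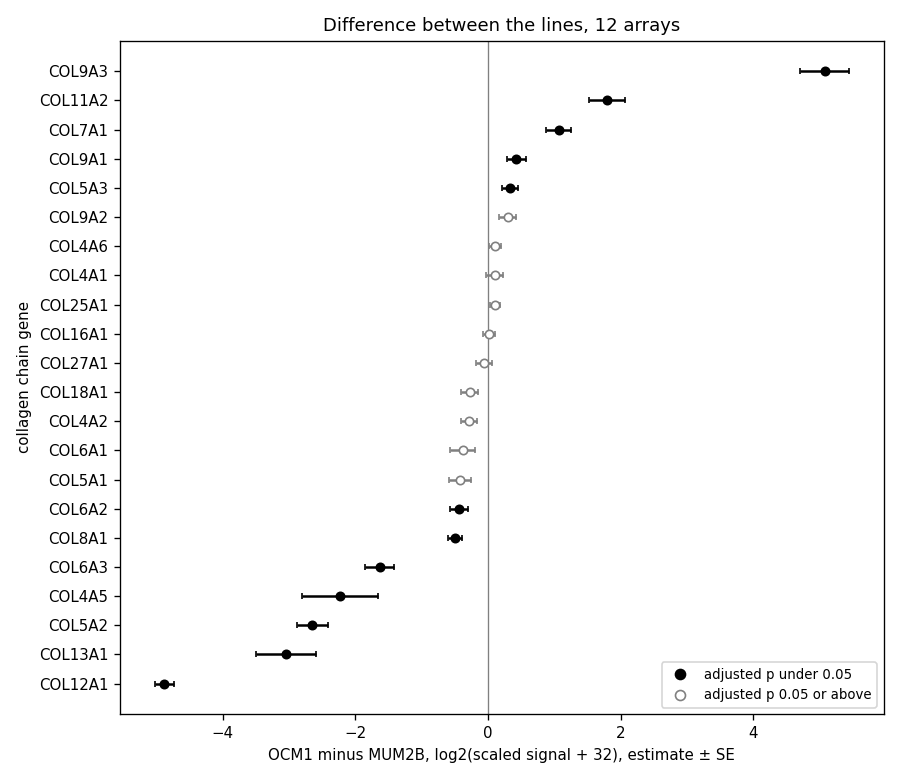
OCM1 minus MUM2B in log2(scaled signal + 32), averaged over CANT1 and wild type, for the 22 tested collagen chain genes on 12 arrays, with bars of 1 SE. Filled points passed at an adjusted p under 0.05. COL9A3 lies at 5.08 and COL12A1 at -4.88, with the other points between them.

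Within wild type cells alone 7 of the 22 genes passed between the lines, 2 higher and 5 lower, where 33.0% of all genes passed, 19.1% higher and 13.9% lower. Within CANT1 cells 10 passed, 3 higher and 7 lower, where 37.2% of all genes passed, 21.2% higher and 16.1% lower. Without OCM1 wild type replicate 1 the counts were 12 for wild type, 14 for CANT1 and 14 for the average, where 43.9%, 48.4% and 57.0% of all genes passed. Without OCM1 wild type replicate 3 or MUM2B wild type replicate 3 the wild type count was 4, where 23.8% and 22.8% of all genes passed. On replicates 2 and 3, 15 passed among wild type cells, 7 higher and 8 lower (64.6% of all genes, 35.2% higher and 29.5% lower), and 18 among CANT1 cells, 8 higher and 10 lower (66.3%, 38.2% higher and 28.1% lower). COL12A1, COL5A2 and COL9A3 passed in each of these fits in the directions given above. COL12A1 and COL9A3 entered the test through a single line, and COL5A2 did so but for OCM1 wild type replicate 1. Their passing therefore followed from how they entered and adds no support. Replicate 1, with 1 array a group and no test, gave OCM1 minus MUM2B differences among wild type cells of -4.66 for COL12A1, -1.62 for COL5A2 and 2.72 for COL9A3, but of 0.77 for COL4A5, against -2.84 on replicates 2 and 3. Among CANT1 cells of replicate 1, COL4A5 differed by -3.42.

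CANT1 overexpression was then compared with wild type in each line. Over 12 arrays no collagen gene passed in either line. In MUM2B 0 of 22 passed, as did 0% of all genes, and 3 had an unadjusted p under 0.05 (1.73% of all genes), namely COL6A1, COL6A2 and COL6A3. In OCM1 0 of 22 passed, where 0.126% of all genes did, and 4 had an unadjusted p under 0.05 (9.26%), namely COL11A2, COL4A2, COL6A1 and COL7A1. The difference between the lines in the CANT1 effect passed for 0 of 22 (0.0471% of all genes), and 5 had an unadjusted p under 0.05 (4.99%). Without OCM1 wild type replicate 1, the counts of collagen genes passing stayed at 0. With array weights 5 collagen genes passed in MUM2B (19.6% of all genes), 9 in OCM1 (29.0%) and 9 for the difference between the lines (23.3%).

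On replicates 2 and 3 of MUM2B, the 3 chains of the type VI trimer were higher with CANT1, together with COL13A1 and COL7A1. These 5 of 22 passed and none was lower, where 25.0% of all genes passed, 14.4% higher and 10.6% lower. The median difference of the 22 was 0.07, against 0.00 over all genes. COL6A3 read 453 and 672 with CANT1, against 136 and 225 in wild type, a difference of 1.49 ± 0.23, adjusted p = 0.00156. COL6A1 read 2341 and 2608, against 1285 and 1522 in wild type, a difference of 0.81 ± 0.11, adjusted p = 8.18e-04. The CANT1 arrays of both genes lay above the wild type arrays. COL6A2 read 348 and 391 with CANT1, against 201 and 208 in wild type (0.76 ± 0.13, adjusted p = 0.00215), but 3 other COL6A2 probe sets gave differences of 0.06 to 0.20. Of the other probe sets of COL6A1, 4 gave 0.53 to 0.74 and a dim one 0.20, and of those of COL6A3 one gave 1.08 and a dim one 0.04.

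COL13A1 read 1029.8 and 1567 on these MUM2B CANT1 arrays, against 351 and 519.8 in wild type, a difference of 1.50 ± 0.20, adjusted p = 8.01e-04, and its 3 other probe sets gave 1.22 to 1.33. COL7A1 read 253 and 267 with CANT1, against 180.2 and 188 in wild type (0.43 ± 0.09, adjusted p = 0.0079), a difference that was lost on leaving out either MUM2B CANT1 replicate 3 or MUM2B wild type replicate 2. Replicate 1 of MUM2B had the same direction for COL6A3 (1.22) and COL6A1 (0.42) and the opposite one for COL13A1 (-0.63) and COL7A1 (-0.64), with -0.04 for COL6A2. COL12A1, the bright MUM2B chain, read 2295 and 2326 with CANT1, against 1989 and 2182 in wild type, and did not pass (0.15 ± 0.09). Nor did the type IV chains, with -0.07 ± 0.11 for COL4A1, 0.04 ± 0.12 for COL4A2 and 0.07 ± 0.12 for COL4A5. The summed epithelial markers of the 2 MUM2B CANT1 arrays were 32540 and 30388, against 36482 and 35692 in wild type, and the endothelial ones 4720.5 and 5167, against 2852 and 3383, carried by CDH5. The 10 fibroblast and stromal markers summed to 2482 and 2935 with CANT1, against 1965 and 2059 in wild type, carried by the transcription factor gene TWIST2, at 1745 and 2196, against 1315 and 1413. Their part in the collagen differences was not tested.

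On replicates 2 and 3 of OCM1 COL11A2, COL7A1, COL4A2, COL5A2, COL9A3 and COL4A5 were higher with CANT1. COL5A3 and COL6A1 were lower. These 8 of 22 passed where 23.3% of all genes did, 13.7% higher and 9.62% lower. The median difference of the 22 was 0.11, against 0.04 over all genes. COL11A2 read 1674 and 1025 with CANT1, against 494 and 534 in wild type, a difference of 1.30 ± 0.20, adjusted p = 0.00114, and its 2 other probe sets gave 1.46 and 0.61. COL7A1 read 783 and 846 with CANT1, against 462 and 420.1 in wild type, a difference of 0.84 ± 0.09, adjusted p = 1.44e-04. COL4A2 read 4188 and 3567 with CANT1, against 2143 and 2230.1 in wild type, a difference of 0.81 ± 0.12, adjusted p = 6.65e-04. In all 3 genes the CANT1 arrays lay above the wild type arrays.

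The other COL4A2 probe sets gave 0.40 and 0.33. COL4A1, whose start lies 126 bases from that of COL4A2 in the stretch printed above, read 3298 and 3418 with CANT1, against 2992 and 3067 in wild type, and did not pass (0.15 ± 0.11, adjusted p = 0.351). The difference between the 2 genes' changes was not tested. COL5A2 read 99.4 and 62.5 with CANT1, against 34.5 and 35.8 in wild type (0.73 ± 0.15, adjusted p = 0.00532), levels under 100 at which its 5 other probe sets gave -0.19 to 0.14. COL9A3 read 4839 and 4236 with CANT1, against 3231 and 2984 in wild type (0.54 ± 0.13, adjusted p = 0.0105). COL4A5 read 48.2 and 50.9 with CANT1, against 26.7 and 34.3 in wild type (0.39 ± 0.12, adjusted p = 0.0424), also below 100. The call for COL9A3 was lost without OCM1 CANT1 replicate 2 or OCM1 wild type replicate 3, and that for COL4A5 under 6 of 16 alternatives.

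Of the lower genes, COL6A1 read 1508 and 1459 with CANT1, against 2009 and 2118 in wild type (-0.47 ± 0.11, adjusted p = 0.00926), and COL5A3 read 128 and 108, against 160.4 and 197 (-0.49 ± 0.11, adjusted p = 0.00989). Both were lost when OCM1 CANT1 replicate 3 or OCM1 wild type replicate 3 was left out. The summed pigment cell markers of these OCM1 arrays were 80164 and 83411 with CANT1, against 81885 and 80062 in wild type, but its genes moved in opposite directions. TYRP1 read 2674 and 3803 with CANT1, against 13643 and 14060.0 in wild type, while PMEL read 29877 and 31601, against 23557 and 21041, and S100B 9292 and 8660.2, against 6129 and 5998. The part of these markers in the collagen differences was not tested. Replicate 1 of OCM1 had the same direction for COL11A2 (1.26), COL4A2 (0.85), COL7A1 (0.43), COL9A3 (2.15) and COL6A1 (-1.50). It had the opposite direction for COL4A5 (-4.51) and COL5A2 (-1.02), and -0.04 for COL5A3. The wild type array of that pair is the one that stood apart, and CANT1 and wild type had pigment marker sums of 89870 and 14746 there.

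**Figure D4:**
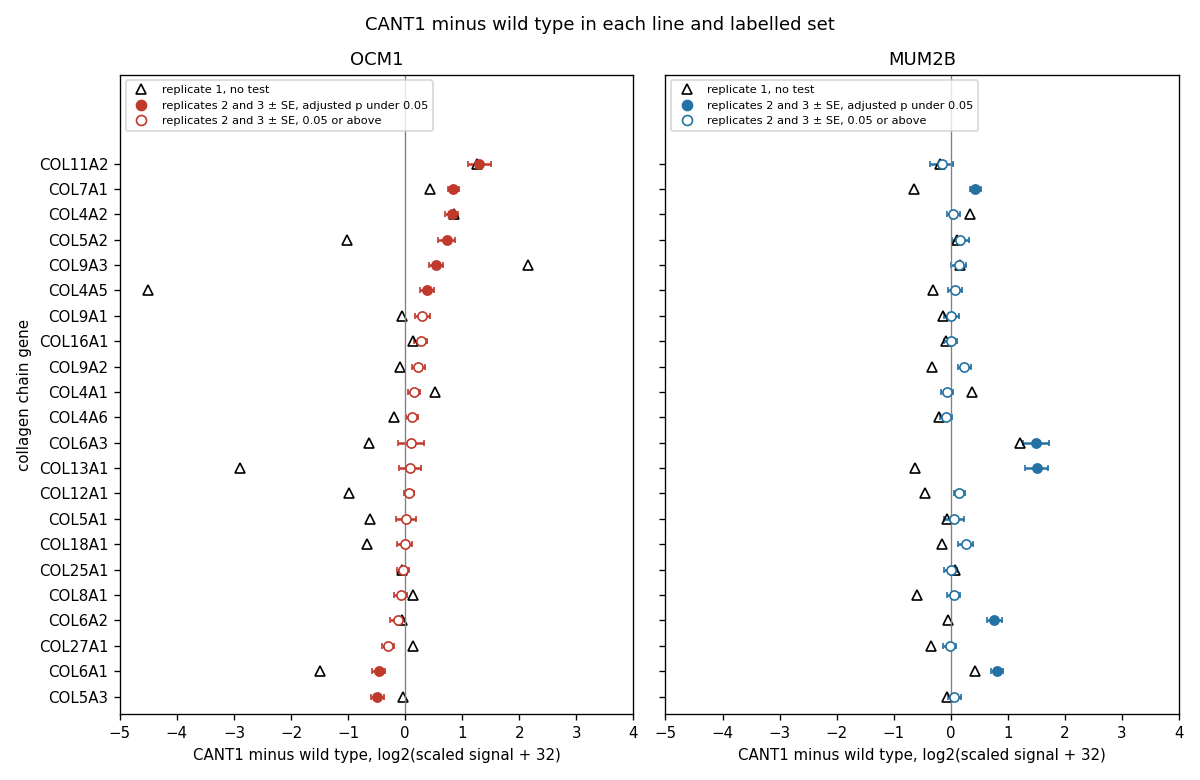
CANT1 minus wild type in log2(scaled signal + 32) for the 22 tested collagen chain genes in OCM1 (left) and MUM2B (right). Circles with bars of 1 SE are replicates 2 and 3, filled where the adjusted p was under 0.05, and open triangles are the single pair of replicate 1, with no test. In OCM1 the triangles of COL4A5 (-4.51) and COL13A1 (-2.90) lie far from their circles.

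Whether the CANT1 effect differed between the lines was tested on replicates 2 and 3, and 7 of 22 genes passed, 2 higher and 5 lower (21.8% of all genes, 11.2% higher and 10.6% lower). The signed CANT1 minus wild type value was higher in OCM1 than in MUM2B for COL11A2 (1.46 ± 0.29, adjusted p = 0.00515) and COL4A2 (0.77 ± 0.16, adjusted p = 0.00781). It was lower in OCM1 for all 3 type VI chains, COL6A1 (-1.27 ± 0.15, adjusted p = 3.74e-04), COL6A2 (-0.90 ± 0.18, adjusted p = 0.00569) and COL6A3 (-1.39 ± 0.33, adjusted p = 0.0122). The same held for COL13A1 (-1.42 ± 0.28, adjusted p = 0.00518) and COL5A3 (-0.55 ± 0.16, adjusted p = 0.0302). COL5A3 changed by -0.49 in OCM1, against 0.06 in MUM2B. COL6A1 was lower with CANT1 in OCM1 and higher with CANT1 in MUM2B, and passed in each line. The type VI results were not all stable: COL6A2 was lost with the _x_at and _s_at probe sets, whose probes can match several transcripts, set aside (-0.38, adjusted p = 0.0979), and COL6A3 without OCM1 wild type replicate 3 (adjusted p = 0.0533) or MUM2B CANT1 replicate 3 (adjusted p = 0.0510). COL5A3 was lost under 5 of 15 alternatives, with an adjusted p of up to 0.116. Of the other genes higher in OCM1 with CANT1, this difference did not pass for COL5A2 (adjusted p = 0.079), COL9A3 (adjusted p = 0.133) or COL4A5 (adjusted p = 0.232). COL7A1 passed as higher with CANT1 in both lines, and the difference between its effects was 0.41 ± 0.13, adjusted p = 0.0506.

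Whether the effect differed between the labelled sets was tested with all 12 arrays, where the lone replicate 1 array of a group was assumed to vary like the others. In MUM2B 6 of 22 genes passed (35.8% of all genes, 18.1% higher and 17.7% lower), each with a larger value on replicates 2 and 3. COL13A1 had the largest such difference, 2.13 ± 0.34, adjusted p = 6.78e-04, followed by COL7A1 at 1.07 ± 0.17, adjusted p = 5.70e-04. In OCM1 7 of 22 passed, 6 with a larger value and 1 with a smaller one (48.1% of all genes, 27.6% higher and 20.5% lower). COL4A5 differed by 4.89 ± 0.21, adjusted p = 1.41e-08 and COL13A1 by 2.98 ± 0.34, adjusted p = 2.24e-05, and COL9A3, the single gene with a smaller value on replicates 2 and 3, by -1.61 ± 0.22, adjusted p = 8.73e-05. For COL11A2, COL4A2 and COL7A1 in OCM1 and for COL6A3 and COL6A1 in MUM2B this test did not pass, with differences of 0.04 ± 0.35, -0.04 ± 0.20, 0.41 ± 0.17, 0.27 ± 0.40 and 0.38 ± 0.19.

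The lists below were chosen with earlier results of these arrays known. The genes that modify, secrete, cross-link, bind and degrade collagens were read in the same fits. Of 13 tested genes for prolyl and lysyl hydroxylation, 7 were higher in OCM1 and 1 lower on average over 12 arrays, where 28.0% of all genes were higher and 20.8% lower. PLOD3, a lysyl hydroxylase, read 1409 to 11039.8 in OCM1, against 1040.0 to 1425 in MUM2B (2.33 ± 0.36, adjusted p = 5.09e-04), and the prolyl 3-hydroxylation cofactor CRTAP read 5523 to 13639, against 3724 to 5543 (1.18 ± 0.19, adjusted p = 7.53e-04). Folding and export genes were higher for 5 and lower for 1 of 11, among them FKBP10, a collagen chaperone, at 1.23 ± 0.18, adjusted p = 3.23e-04. Of 9 genes for propeptide removal and crosslinking 2 were higher and 2 lower: PCOLCE2, an enhancer of propeptide cleavage, was higher by 2.01 ± 0.10, adjusted p = 2.71e-07, and LOXL3 by 2.00 ± 0.32, adjusted p = 6.03e-04, while the lysyl oxidase relatives LOXL1 (-3.00 ± 0.27, adjusted p = 1.63e-05) and LOXL2 (-2.56 ± 0.21, adjusted p = 9.47e-06) were lower. LOXL1 read 30.1 to 48.1 on the OCM1 arrays other than wild type replicate 1, 201 on that array and 488 to 955 in MUM2B.

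Collagen receptors and uptake genes were higher for 3 and lower for 6 of 14. For this count and those below, 28.0% of all genes were higher in OCM1 and 20.8% lower in the same comparison. DDR2, a receptor kinase for fibrillar collagen, read 59.8 to 72.5 on the OCM1 arrays other than wild type replicate 1, 1440.4 on that array, and 947 to 1930.4 in MUM2B (-3.24 ± 0.50, adjusted p = 5.20e-04). ITGB1, the common partner of the collagen integrins, was lower in OCM1 (-1.08 ± 0.14, adjusted p = 1.56e-04), as was ANTXR2, a receptor in type VI collagen uptake (-2.82 ± 0.38, adjusted p = 2.30e-04). Degradation genes were higher for 3 and lower for 3 of 11, and fibril partners higher for 2 and lower for 4 of 10. TGFBI, a matrix protein that binds collagens, read 43.4 to 81.5 in OCM1, against 1493 to 4175 in MUM2B, and fibronectin, FN1, read 942 to 1929, against 2856 to 12764 (-2.42 ± 0.29, adjusted p = 9.01e-05). The small proteoglycan LUM read 62.5 to 1443 in OCM1, with its lowest value on wild type replicate 1, against 22.5 to 37.5 in MUM2B. TGFBI and LUM entered the test through a single line, and LOXL1 and DDR2 did so but for OCM1 wild type replicate 1. LOXL3 entered through OCM1 but for MUM2B wild type replicate 1, at 102. For all these genes a difference followed from how they entered.

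With CANT1 in MUM2B, on replicates 2 and 3, 7 of 13 receptor and uptake genes were higher and 0 lower, where 14.4% of all genes were higher and 10.6% lower. They included MRC2, the endocytic collagen receptor, at 1.43 ± 0.17, adjusted p = 4.99e-04, the integrin chain ITGA10 at 1.10 ± 0.13, adjusted p = 5.39e-04, and ANTXR2 at 0.80 ± 0.11, adjusted p = 9.44e-04. On replicate 1 their differences were -0.98, -2.15 and -0.53, opposite in sign. Degradation genes were higher for 4 and lower for 0 of 10, led by MMP2 at 1.34 ± 0.20, adjusted p = 0.00133 and MMP14 at 0.71 ± 0.11, adjusted p = 0.0019, both collagen-cleaving metalloproteinases. SERPINH1, the chaperone of the collagen triple helix, was lower (-0.65 ± 0.10, adjusted p = 0.00161), and its replicate 1 difference was 0.56. FN1 was higher by 1.22 ± 0.18, adjusted p = 0.00133. On replicate 1 FN1 read 12512 with CANT1, against 12764 in wild type, MMP2 334, against 459, and MMP14 4198, against 4514. None of these was higher with CANT1 there. Hydroxylation genes were higher for 3 and lower for 0 of 13, folding and export genes higher for 2 and lower for 2 of 11, and crosslinking genes higher for 1 and lower for 0 of 9.

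In OCM1, on the same replicates, 3 of 13 receptor and uptake genes were higher and 1 lower with CANT1, and fibril partners were higher for 4 and lower for 0 of 10, where 13.7% of all genes were higher and 9.62% lower. NID1, which links type IV collagen to laminin, read 165 and 194 with CANT1, against 17.0 and 18.7 in wild type (2.08 ± 0.14, adjusted p = 4.54e-06), while on replicate 1 it read 21.7 with CANT1, against 5195 in wild type. ANTXR2 was higher by 1.31 ± 0.11, adjusted p = 2.10e-05 on replicates 2 and 3, with a replicate 1 difference of -1.81. FAP, a protease that trims collagen fragments, was lower (-1.04 ± 0.11, adjusted p = 1.11e-04), as was MMP14 (-0.56 ± 0.11, adjusted p = 0.00534), with replicate 1 differences of 0.30 and 1.73. Degradation genes were higher for 3 and lower for 2 of 10, hydroxylation genes higher for 1 and lower for 1 of 13, folding and export genes higher for 0 and lower for 2 of 11, and of 9 crosslinking genes none passed. Over 12 arrays, without array weights, no gene of these lists passed for CANT1 against wild type in either line.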

How the data were processed

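The deposited values, 1 for each of 49395 probe sets on 12 Affymetrix PrimeView arrays, were made with MAS5 per the submitters' processing notes, which give neither a version nor a logarithm base, and they were read as log2 from their range. Here each deposited log2 value was taken as a power of 2, scaled to a 2% trimmed mean of 500 per array, and returned to log2 after adding 32, which understates folds of dim genes. Scale factors were 1.17 to 1.23 for replicate 1 and 1.63 to 1.79 for replicates 2 and 3. The 102 control probe sets were left out, 1832 named several genes and 2473 none, and symbols were updated by gene identifier for 44961 of 44988 that named 1 gene. Genes with a signal of 100 on 3 or more arrays entered moderated linear models (limma 3.58.1, R 4.3.3, eBayes after lmFit, with Benjamini-Hochberg adjustment). The fit on 12 arrays (12727 genes, 7 residual degrees of freedom) had a term per group and 1 for the labelled set. Replicates 2 and 3 had a fit of their own (12116 genes, 4 degrees of freedom), as did the difference between sets (4 degrees of freedom), and replicate 1 alone had no test. The models were tested on simulated data. Members, lists and tests were chosen with earlier results of these data known. Values on every array are given for members that passed between the lines on 12 arrays, except COL9A1, given as a range per line. They are also given for members among the 5 largest passing differences on replicates 2 and 3, or among the 5 highest mean levels. Of each list, up to 4 genes with the smallest p are named. Promoter bases come from RefSeq tables (GRCh38.p14), trimmed to end before the gene start. Alternatives covered quantile normalization, other offsets and filters, the set term, a replicate block, the arrays compared only, array weights, an intensity trend, other probe sets and each array left out. Same-numbered arrays deviated together at r = 0.095 to 0.623 for replicate 1, 0.094 to 0.465 for replicate 2 and 0.030 to 0.498 for replicate 3, and the numbers were not taken to pair samples. Raw intensity files were not analysed here.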

Additional observations from a re-analysis of the deposited data

Results flagged for a closer look

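The CANT1 minus wild type difference of 7 of 22 collagen genes was not the same in the 2 lines on replicates 2 and 3, by limma's test of the difference (OCM1 minus MUM2B, adjusted over all genes). Of all genes tested, 21.8% passed this test, 11.2% higher and 10.6% lower. The values were 1.46 ± 0.29, adjusted p = 0.00515 for COL11A2 and 0.77 ± 0.16, adjusted p = 0.00781 for COL4A2, the chains with the higher signed value in OCM1. The other 5 were -1.42 ± 0.28 for COL13A1, -1.39 ± 0.33 for COL6A3, -1.27 ± 0.15 for COL6A1, -0.90 ± 0.18 for COL6A2 and -0.55 ± 0.16 for COL5A3. COL13A1 and COL6A3 lay below 100 on every OCM1 array of replicates 2 and 3. With the _x_at and _s_at probe sets set aside COL4A2 (0.31) and COL6A2 (-0.38) were lost, and COL6A3 and COL5A3 were lost on leaving out single arrays.

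In MUM2B, 6 of 22 collagen genes had CANT1 differences that were larger on replicates 2 and 3 than on replicate 1 by the test of the labelled sets. Of all genes tested, 35.8% passed this test, 18.1% with a larger value and 17.7% with a smaller one. The differences between sets were 2.13 ± 0.34 for COL13A1, 1.07 ± 0.17 for COL7A1, 0.80 ± 0.22 for COL6A2, 0.64 ± 0.19 for COL8A1, 0.61 ± 0.16 for COL12A1 and 0.57 ± 0.20 for COL9A2. COL8A1, COL12A1 and COL9A2 had differences of 0.05, 0.15 and 0.24 on replicates 2 and 3, none of which passed, against -0.59, -0.46 and -0.33 on replicate 1. COL6A2 was lost with the mean of all probe sets (0.31, adjusted p = 0.146) and without the _x_at and _s_at ones (0.07, adjusted p = 0.826), and COL9A2 with no filter (adjusted p = 0.0509).

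In OCM1, 7 of 22 collagen genes differed between the sets, where 48.1% of all genes did. The replicate 1 side rests on the wild type array with low pigment cell markers. COL12A1 lay below 100 on every OCM1 array, and COL4A5, COL13A1 and COL5A2 reached 100 in OCM1 on that array only. The differences between sets were 4.89 ± 0.21 for COL4A5, 2.98 ± 0.34 for COL13A1, 1.75 ± 0.26 for COL5A2, 1.05 ± 0.16 for COL12A1, 1.03 ± 0.19 for COL6A1 and 0.67 ± 0.23 for COL18A1, with -1.61 ± 0.22 for COL9A3. With the mean of all probe sets COL5A2 (0.36, adjusted p = 0.0748), COL12A1 (0.21, adjusted p = 0.260) and COL6A1 (0.25, adjusted p = 0.187) were lost. The part of that array's other differences in these values was not tested.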

How the results depend on the processing

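Of 236 counts of collagen genes passing under alternatives, 222 stayed within 1.5 times of the reported count, and of 1595 values for single genes that had passed, 112 lost their call and 0 changed sign. Array weights gave 17 genes between the lines among wild type cells (69.0% of all genes) and 18 among CANT1 cells (69.2%), and for CANT1 against wild type on 12 arrays 5 in MUM2B (COL13A1, COL6A1, COL6A2, COL6A3 and COL7A1; 19.6%), 9 in OCM1 (29.0%) and 9 for the difference between the lines (23.3%). Without the set term 3 of 22 genes passed between the lines among wild type cells (24.0% of all genes). With no filter all 43 members were tested, and the set difference in OCM1 gave 12 of them (36.4% of all genes). With single arrays left out, the count between the lines among wild type cells ran from 4 to 12. It was 4 without OCM1 wild type replicate 3 or MUM2B wild type replicate 3 (23.8% and 22.8% of all genes). It was 12 without OCM1 wild type replicate 1 (43.9%). For CANT1 in OCM1 the count ran from 0 to 1 on 12 arrays, the 1 being COL7A1 without MUM2B wild type replicate 1 (0.650% of all genes). On replicates 2 and 3 fewer than 8 passed when any OCM1 array was left out, in fits with 1 array left in a group. With a replicate block no count of collagen genes passing for CANT1 in either line moved by more than 1.5 times, on 12 arrays or on replicates 2 and 3. When probe sets of the _x_at and _s_at kinds were set aside, the MUM2B call of COL6A2 on replicates 2 and 3 was lost (0.20, adjusted p = 0.203), as was the difference between the lines in the CANT1 effect for COL4A2 (0.31, adjusted p = 0.133), and the mean of all probe sets gave 0.07 for COL5A2 in OCM1. The causes were not tested. The number of arrays and levels near 100 limit what could be seen for the dim chains.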
